A study of Mus musculus with 8 samples.

Results

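The semaphorin ligands, plexin receptors and neuropilin co-receptors were followed in the head mesenchyme of the mouse embryo. They were taken by gene symbol as the class 3 to class 7 semaphorins, the A to D plexins and both neuropilins. This gave 31 genes of the 23420 in the table, namely 20 semaphorins, 9 plexins and 2 neuropilins. RNA was sequenced from supraorbital mesenchyme (SOM), the tissue above the eye, and from early migrating mesenchyme (EMM), both dissected from wild type C57BL/6 embryos at E12.5. Each tissue had 4 libraries, each made from a pool of 4 to 5 embryos, after enzymatic removal of the surface ectoderm and the brain. No allele, transgene or treatment set the tissues apart, and 1 contrast was possible, SOM against EMM. The SOM libraries held 16765416 to 33694331 reads assigned to genes and the EMM libraries 12703844 to 22440232.

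Semaphorins are guidance cues that share a sema domain, best known for turning growing axons and migrating neural crest cells and for shaping blood vessels. Class 3 members are secreted and mostly act through a neuropilin, which binds the ligand, paired with an A-type or D-type plexin, which carries the signal into the cell. Classes 4 to 7 sit in the membrane and bind plexins directly: class 4 is known for B-type plexins, class 6 for A-type plexins and class 7 for the C-type plexin. Inside the cell, plexins act on small GTPases of the Ras and Rap families, and on actin and adhesion. In the embryonic head these genes are known to border the streams of migrating neural crest.

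The test was passed by 23 of the 31 genes, 7 of them higher in SOM and 16 higher in EMM, while 8 did not pass. The test was limma on the log2 of normalized counts, which are reads divided by a size factor of the library, and a gene passed at a Benjamini-Hochberg adjusted p under 0.05. All 31 genes passed the filter on low values, at least 10 normalized counts in at least 4 libraries. Over all 14249 genes tested 72.1% passed, 36.0% higher in SOM and 36.1% higher in EMM, beside 22.6% and 51.6% of the 31. Differences of at least 2-fold were found in 2 genes toward SOM (5.19% of all genes) and 6 toward EMM (11.0% of all genes). In 6 genes every SOM library lay above every EMM library (32.9% of all genes), and in 15 the reverse held (33.2% of all genes), together 21 of 31 beside 66.1%. The median log2 difference, SOM minus EMM, was -0.42 over the 31 genes and 0.0099 over all genes. The same 16 genes were higher in EMM under each of 18 alternatives (other tools, scalings and filters, and libraries left out), while the count toward SOM ran from 6 to 9. The authors' deposited table gave the same call for 30 of the 31 genes, the exception being Sema5b, with an adjusted p of 0.0771 there. In bulk tissue, fewer cells of a type and less RNA per cell cannot be told apart.

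**Figure D1:**
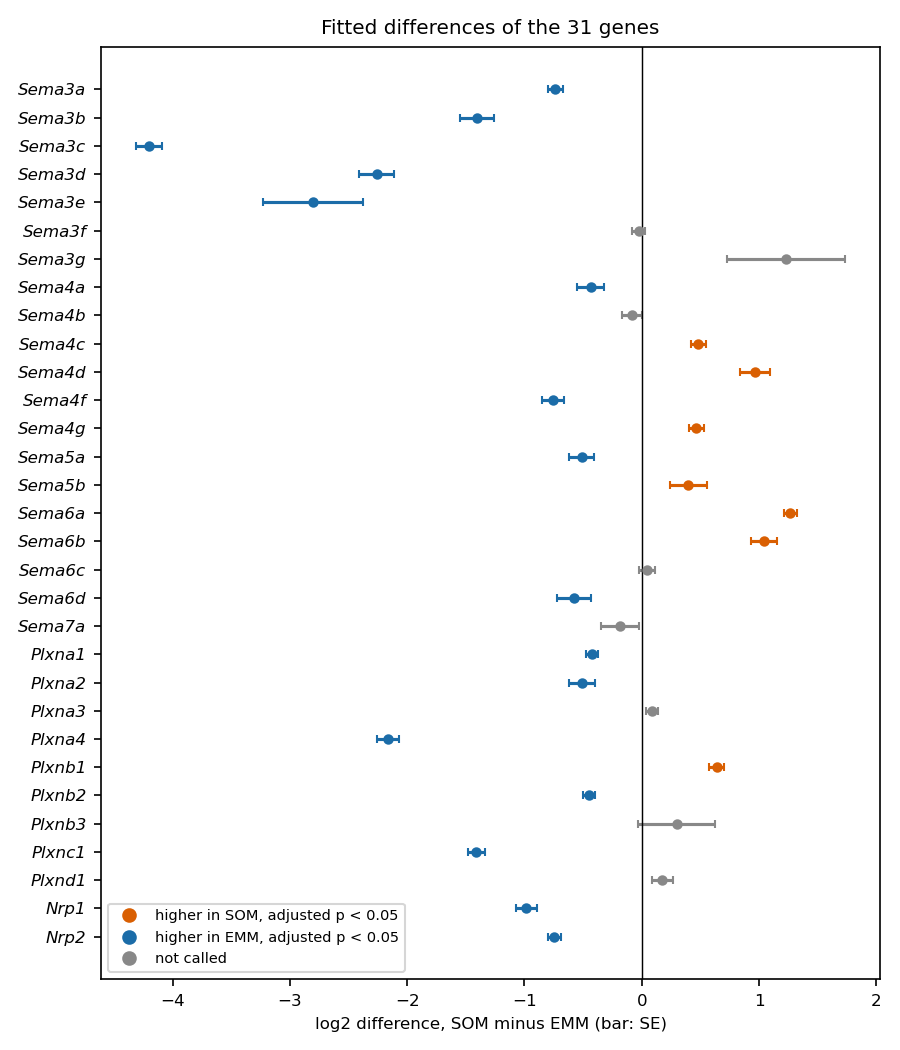
Fitted log2 differences, SOM minus EMM, of the 31 genes with their SE (bars), coloured by call. Sema3c stands farthest left at -4.20, and Sema6a farthest right among the called genes at 1.27.

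Both tissues carried the 8 mesenchymal marker genes, each with a mean of at least 2058 normalized counts in either tissue. All 8 passed, 5 toward SOM (among them Prrx1, Twist1 and, at a log2 difference of 1.04, Twist2) and 3 toward EMM (Pdgfra, Col1a1 and Col1a2). Sums over the 8 genes were 275824 to 321362 in SOM and 667154 to 783527 in EMM. Col1a1 averaged 107732 in SOM and 366350 in EMM, and Col1a2 averaged 92912 in SOM and 293153 in EMM. Markers of other cells moved with the contrast too. Each count here stands beside 36.0% of all genes tested that passed toward SOM and 36.1% toward EMM. All 12 macrophage genes were higher in EMM, with a summed level of 3007 to 3405 in SOM and 12411 to 15541 in EMM. Of 8 genes that mark pericytes and vascular smooth muscle, EMM was higher in 7, with sums of 14363 to 16977 in SOM and 64349.9 to 71938 in EMM. Most of the EMM sum was Acta2, at a mean of 2167 in SOM and 38221 in EMM, and Tagln, at 1546 in SOM and 14623 in EMM. The log2 difference of Pdgfrb was -0.46, and Cspg4 passed toward SOM at 0.33 (limma adjusted p = 0.0372). Endothelial genes were split, 3 higher in SOM and 7 in EMM of 12, and their sums were 15474 to 18053 in SOM and 20095 to 25768 in EMM. Of 8 neural crest glia genes 6 were higher in SOM and 2 in EMM (sums 1309 to 1537 in SOM and 809 to 1159 in EMM). The EMM sum was mostly Ednrb, at 751, while Sox10 averaged 513 ± 46.4 in SOM and 4.35 ± 1.69 in EMM and Foxd3 was at 0 in all EMM libraries. The mean log2 level of the glia genes was 6.92 to 7.23 in SOM and 4.16 to 4.53 in EMM. Of 10 neuron genes tested 5 were higher in SOM and 3 in EMM (50% and 30%), with sums of 3247 to 3483 in SOM and 1488 to 1961 in EMM. Most of the SOM sum was Tubb3, at a mean of 1502 in SOM and 663 in EMM, and Stmn2, at 1057 in SOM and 114 in EMM. Elavl3, Snap25 and Syt1 passed toward EMM. By mean log2 level, 5.76 to 5.91 in SOM and 5.45 to 5.98 in EMM, the tissues overlapped. Of 9 surface ectoderm genes tested 3 were higher in EMM and none in SOM (sums 1601 to 2075 in SOM and 4194 to 4618 in EMM). Most of both sums was Cdh3, and the mean log2 level of the list, 5.21 to 5.90 in SOM and 4.74 to 6.61 in EMM, overlapped between the tissues. Of 3 brain progenitor genes tested, 1 was higher in SOM and 2 in EMM, with Sox1 at no more than 12.7 in any library (sums 767 to 1024 in SOM and 154 to 495 in EMM). By mean log2 level the brain list went the other way, at 2.66 to 2.93 in SOM and 3.57 to 5.08 in EMM. Skeletal muscle genes were low, with Myf5 at 0 in all 8 libraries, and 4 of 5 tested were higher in EMM (sums 85.6 to 124 in SOM and 116 to 159 in EMM), with overlapping mean log2 levels of 2.72 to 3.30 in SOM and 2.83 to 3.07 in EMM. The part of these cells in the differences given here was not tested.

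Class 3 semaphorins, the secreted ligands, carried the largest differences. Of the 7 genes, 5 were higher in EMM (71.4%, beside 36.1% of all genes tested), none was higher in SOM (36.0% of all genes), and Sema3f and Sema3g did not pass. Sema3c, a ligand known for the heart outflow tract and neural crest, had 484, 638, 479 and 534 normalized counts in SOM replicates 1 to 4, against 11050.2, 9989.6, 8222 and 9978 in EMM replicates 1 to 4. Every EMM library held more than 10 times the level of any SOM library. The mean was 533 ± 74.1 in SOM and 9809.9 ± 1172 in EMM (SD, n = 4 each), a ratio of EMM to SOM of 18.4, and the log2 difference was -4.20 (SE 0.11, limma adjusted p = 3.48e-10). By size this was the 71st difference of the 14249 genes. The SOM value rested on 2845 reads and the EMM value on 31615 reads.

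Sema3d, a ligand known to guide vessels and neural crest cells, had 173, 217, 167 and 196 normalized counts in SOM replicates 1 to 4, against 1106, 981, 662 and 919.6 in EMM replicates 1 to 4. The groups did not overlap, and EMM replicate 3 was the lowest of its tissue. The log2 difference was -2.26 (SE 0.15, limma adjusted p = 1.25e-07). Sema3e, which acts on Plxnd1 without a neuropilin in vessels, was the rarest semaphorin in SOM, with 60 reads over all SOM libraries and 271 over all EMM libraries. It stood at 20.1, 3.50, 12.8 and 12.7 normalized counts in SOM replicates 1 to 4, against 63.4, 63.3, 112 and 90.2 in EMM replicates 1 to 4, so that SOM replicate 2 held only a few reads. Its log2 difference was -2.80 (SE 0.42, limma adjusted p = 0.000138), between -3.09 and -2.35 over the alternatives.

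Sema3a, the founding repellent of sensory axons, had 1475, 1460.3, 1328 and 1609 normalized counts in SOM replicates 1 to 4, against 2576, 2532, 2189 and 2491 in EMM replicates 1 to 4. All EMM libraries were above all SOM libraries, by a smaller margin than for Sema3c, with a log2 difference of -0.74 (SE 0.06, limma adjusted p = 4.08e-08). Sema3b, a relative that can be cleaved into shorter forms, averaged 104 ± 20.9 in SOM and 274 ± 39.3 in EMM (SD, n = 4 each). Its libraries ran from 80.8 to 129 in SOM and from 238 to 329 in EMM, without overlap, and the log2 difference was -1.40 (SE 0.14, limma adjusted p = 2.58e-07).

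Sema3f, a ligand that prefers the neuropilin Nrp2, stood near the same level in both tissues, with 2629, 2902, 3087 and 2874 normalized counts in SOM replicates 1 to 4, against 2833, 3098, 2758 and 3004 in EMM replicates 1 to 4. The groups overlapped, and the log2 difference was -0.03 (SE 0.06, limma adjusted p = 0.692), with a sign that turned under 3 alternatives. Sema3g, known from arterial endothelium, had 287, 240.0, 245 and 327 normalized counts in SOM replicates 1 to 4, against 81.8, 97.6, 325 and 68.7 in EMM replicates 1 to 4. All 4 SOM libraries were above 3 of the EMM libraries, and EMM replicate 3 lay within the SOM range. The log2 difference was 1.23 (SE 0.50, limma adjusted p = 0.0649), and without EMM replicate 3 it was 1.72 with limma adjusted p = 1.17e-08. Over the alternatives the adjusted p ran from 1.17e-08 to 0.157, and it was 0.0461 with limma-voom on all libraries. EMM replicate 3 also had the highest endothelial sum of its tissue, 25768 against 20095 to 23158 in the other EMM libraries; that this bears on Sema3g was not tested.

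**Figure D2:**
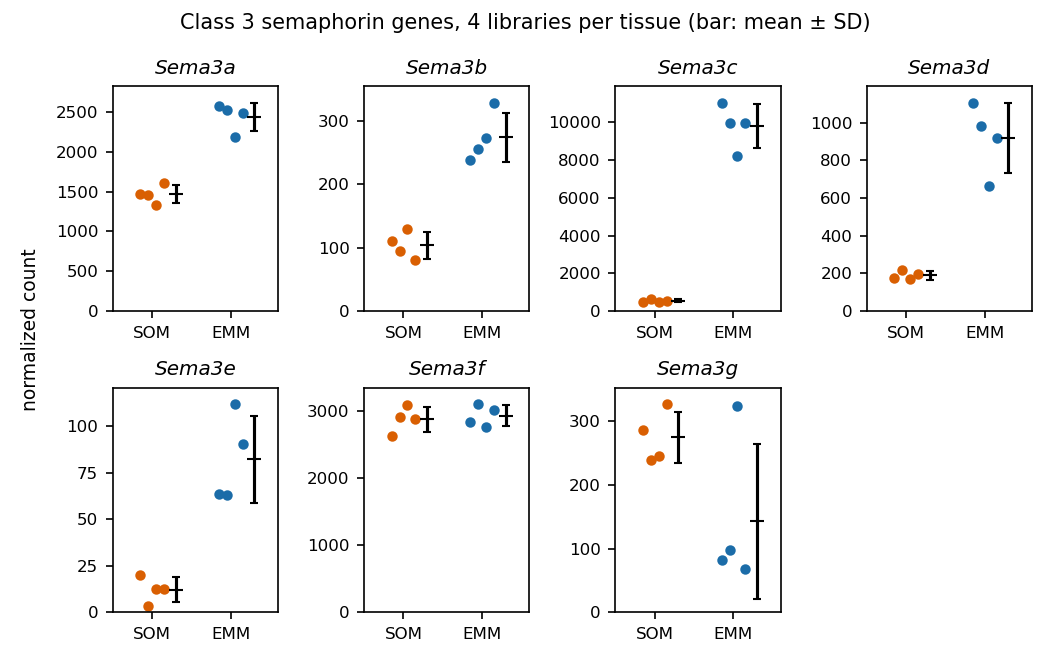
Normalized counts (linear axes from 0) of the 7 class 3 semaphorin genes, with 1 point per library, SOM on the left and EMM on the right, and mean ± SD bars. EMM points lie above SOM points without overlap for Sema3a to Sema3e, Sema3f is level, and EMM replicate 3 stands alone for Sema3g at 325.

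The make-up of the secreted class differed between the tissues. Counting per kb of exon, so that genes can be set beside each other, Sema3f made up 65.9% ± 2.29 of the class 3 sum in SOM and 24.4% ± 1.67 in EMM (SD, n = 4 each). Sema3c made up 8.90% ± 1.14 in SOM and 59.1% ± 2.62 in EMM. Sema3a made up 12.6% ± 1.13 in SOM and 7.62% ± 0.0942 in EMM, although its own level was higher in EMM. The union of its exons is 13868 bases and its longest annotated transcript 5930. With that length for each gene Sema3a made up 18.9 ± 1.64% in SOM and 12.4 ± 0.130% in EMM, Sema3c 7.39 ± 0.941% in SOM and 53.5 ± 2.42% in EMM, and Sema3g 4.62 ± 0.724% in SOM. By union of exons, the ratio of Sema3c to Sema3f was 0.135 ± 0.0193 in SOM and 2.44 ± 0.284 in EMM. The class 3 sum itself was 839 ± 33.6 normalized counts per kb in SOM and 2317 ± 182 in EMM.

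The genes Sema3d, Sema3a, Sema3e and Sema3c lie in this order on chromosome 5, all on the plus strand. They are the 4 class 3 genes of a 5.35 Mb stretch of GRCm38 that holds 22 RefSeq protein-coding genes. In GENCODE M21, Sema3d spans chr5:12383385-12588948, Sema3a chr5:13125414-13602565, Sema3e chr5:14025276-14256689 and Sema3c chr5:17574281-17730268. Between them, 3 other genes were expressed enough to be tested, and the stretch was looked at after its values were seen. Pclo, which encodes a large scaffold of the presynapse, averaged 27.3 ± 2.20 in SOM and 85.9 ± 19.4 in EMM, with a log2 difference of -1.60 (SE 0.18, limma adjusted p = 9.18e-07). Cacna2d1, a calcium channel subunit gene, averaged 482 ± 31.3 in SOM and 837 ± 101 in EMM, with a log2 difference of -0.79 (SE 0.08, limma adjusted p = 2.44e-07). Hgf, the ligand of the receptor Met, had a log2 difference of -0.08 and did not pass (limma adjusted p = 0.765). Sema3b and Sema3f also lie close together, on chromosome 9 with 72.3 kb between them, and there Sema3b was higher in EMM while Sema3f did not pass.

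Promoter windows of RefSeq on GRCm38.p6, from 250 bases before to 50 bases after a gene's start, matched 26 of the 31 genes. Windows of 3 of the chromosome 5 genes that were higher in EMM are printed 5′ to 3′, since these are the largest class 3 differences. The Sema3c window lies at chr5:17574566-17574865, that of Sema3d at chr5:12382916-12383215 and that of Sema3e at chr5:14025026-14025325, each on the plus strand. Capitals mark any match, on either strand, to TATAAA, to the GC-rich box GGGCGG, to the homeodomain core TAATTA, to the E-box CAGATG, to the E-box CAGCTG or to CTTTGA, the core of sites for TCF and LEF factors.
Sema3c: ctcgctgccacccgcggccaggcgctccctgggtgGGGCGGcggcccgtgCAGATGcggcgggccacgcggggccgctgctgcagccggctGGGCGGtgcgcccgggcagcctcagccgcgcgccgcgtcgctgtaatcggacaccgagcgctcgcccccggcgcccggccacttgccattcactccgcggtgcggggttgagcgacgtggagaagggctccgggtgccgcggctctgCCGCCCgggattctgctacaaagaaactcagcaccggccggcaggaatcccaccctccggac
Sema3d: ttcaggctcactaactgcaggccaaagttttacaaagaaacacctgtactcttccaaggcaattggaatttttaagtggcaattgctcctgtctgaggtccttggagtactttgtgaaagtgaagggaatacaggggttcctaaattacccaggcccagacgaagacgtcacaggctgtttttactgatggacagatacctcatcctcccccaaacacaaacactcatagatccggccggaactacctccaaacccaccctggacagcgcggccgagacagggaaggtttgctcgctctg
Sema3e: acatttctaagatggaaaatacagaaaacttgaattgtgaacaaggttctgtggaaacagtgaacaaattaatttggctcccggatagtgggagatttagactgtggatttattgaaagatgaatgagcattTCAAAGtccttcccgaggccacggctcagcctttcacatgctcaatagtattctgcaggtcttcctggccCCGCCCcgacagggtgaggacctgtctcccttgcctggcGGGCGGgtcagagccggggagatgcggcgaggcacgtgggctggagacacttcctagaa
The Sema3c window had 75.7% G and C and an observed over expected CpG ratio of 0.979, and it held GGGCGG and CAGATG. That of Sema3d had 49.7% G and C, a CpG ratio of 0.436 and none of the 6 motifs. That of Sema3e had 50.7% G and C, a CpG ratio of 0.579, and held GGGCGG and CTTTGA. Over all 32851 windows the median was 52.7% G and C with a CpG ratio of 0.384, and over the 37 windows of the family it was 63.7% with a ratio of 0.579. Of these 37 windows 27 held GGGCGG (35.7% of all windows), 2 held CAGATG (17.2%), 6 held CAGCTG (16.3%), 3 held CTTTGA (16%) and none held TATAAA (13.6%) or TAATTA (5.29%). The RefSeq starts of Sema3c and Sema3d differ from the starts of their GENCODE spans, several windows belong to the same gene, and a match is a description of the letters. The Sema3a window of the table lies 271 kb inside the gene's GENCODE span and was not printed.

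Class 4 semaphorins, the membrane ligands best known for B-type plexins, moved both ways: 3 were higher in SOM, 2 in EMM, and Sema4b did not pass. These counts were 50% and 33.3% of the 6 genes, beside 36.0% and 36.1% of all genes tested. Sema4d, a ligand of Plxnb1 that restrains bone formation in mouse, had 235, 183, 198 and 199 normalized counts in SOM replicates 1 to 4, against 114, 108, 82.6 and 112 in EMM replicates 1 to 4. Every SOM library was above every EMM library, with a log2 difference of 0.97 (SE 0.13, limma adjusted p = 3.96e-06). Sema4c, a ligand of Plxnb2, averaged 1813 ± 123 in SOM and 1296 ± 89.0 in EMM (SD, n = 4 each) and Sema4g, another Plxnb2 ligand, averaged 1490.0 ± 134 in SOM and 1075 ± 33.4 in EMM. The log2 differences were 0.48 (SE 0.06, limma adjusted p = 3.06e-06) for Sema4c and 0.47 (SE 0.06, limma adjusted p = 5.69e-06) for Sema4g, both without overlap.

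Toward EMM, Sema4f had 208, 179, 218 and 179 normalized counts in SOM replicates 1 to 4, against 329, 369, 321 and 306 in EMM replicates 1 to 4. No EMM library reached down to the SOM range, and the log2 difference was -0.76 (SE 0.10, limma adjusted p = 2.84e-06). Sema4a, a ligand known from immune cells and the retina, averaged 114 ± 11.5 in SOM and 154 ± 10.7 in EMM, a log2 difference of -0.44 (SE 0.11, limma adjusted p = 0.00282). Macrophage marker genes were higher in EMM too, by a median log2 difference of -1.86 over the 12 genes, and their part in Sema4a was not tested. Sema4b had libraries from 345 to 435 in SOM and from 385 to 444 in EMM, which overlapped, and its log2 difference was -0.08 (SE 0.09, limma adjusted p = 0.414).

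Class 5 semaphorins carry thrombospondin repeats beside the sema domain. Sema5a, the abundant member, had 4174, 4651, 3708 and 4898 normalized counts in SOM replicates 1 to 4, against 6741, 6664, 5159 and 6281 in EMM replicates 1 to 4. The lowest EMM library, replicate 3, was only slightly above the highest SOM library, replicate 4, and the log2 difference was -0.51 (SE 0.11, limma adjusted p = 0.00164). Sema5b was scarce, with 85.6, 72.8, 75.3 and 77.5 normalized counts in SOM replicates 1 to 4, against 54.2, 74.1, 62.7 and 47.1 in EMM replicates 1 to 4. EMM replicate 2 fell within the SOM range, and the log2 difference was 0.40 (SE 0.16, limma adjusted p = 0.0343). That call was lost with DESeq2 (adjusted p = 0.0704) and without SOM replicate 1 (0.0898), 3 (0.0539) or 4 (0.0563) or EMM replicate 1 (0.0789) or 4 (0.113), all limma adjusted p but the first, in a range of alternatives from 0.00959 to 0.113.

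Class 6 semaphorins, ligands of A-type plexins, held both of the genes that were at least 2-fold higher in SOM. Sema6a, which guides axons and migrating neurons through Plxna2 and Plxna4, had 2879, 2844, 3026 and 2995 normalized counts in SOM replicates 1 to 4, against 1288, 1153, 1273 and 1163 in EMM replicates 1 to 4. The spread within each tissue was small beside the gap between them. The mean was 2936 ± 88.4 in SOM and 1219 ± 71.0 in EMM (SD, n = 4 each), a ratio of SOM to EMM of 2.41, and the log2 difference was 1.27 (SE 0.05, limma adjusted p = 4.92e-12). Its adjusted p was the lowest of the 31 genes.

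Sema6b, a close relative that also acts on Plxna4, had 223, 218, 244 and 224 normalized counts in SOM replicates 1 to 4, against 97.1, 114, 101 and 128 in EMM replicates 1 to 4. All SOM libraries were above all EMM libraries, and the log2 difference was 1.05 (SE 0.11, limma adjusted p = 3.56e-07). Sema6d, a ligand of Plxna1 known from the heart and from bone cells, went the other way and averaged 587 ± 117 in SOM and 871 ± 131 in EMM. SOM replicate 4, at 757, was level with EMM replicate 4, at 751, so that the groups overlapped, and the log2 difference was -0.58 (SE 0.14, limma adjusted p = 0.00525). Sema6c averaged 1495 ± 114 in SOM and 1449 ± 122 in EMM with overlapping libraries and a log2 difference of 0.05 (SE 0.07, limma adjusted p = 0.556).

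Sema7a, the membrane-anchored ligand that binds Plxnc1 and beta-1 integrin, had 199, 189.6, 209 and 233 normalized counts in SOM replicates 1 to 4, against 189, 228, 349 and 203 in EMM replicates 1 to 4. EMM replicate 3 was the highest library and the other EMM libraries fell within the SOM range or next to it. Its log2 difference was -0.18 (SE 0.16, limma adjusted p = 0.331), and without EMM replicate 3 it was 0.00611 (limma adjusted p = 0.963).

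**Figure D3:**
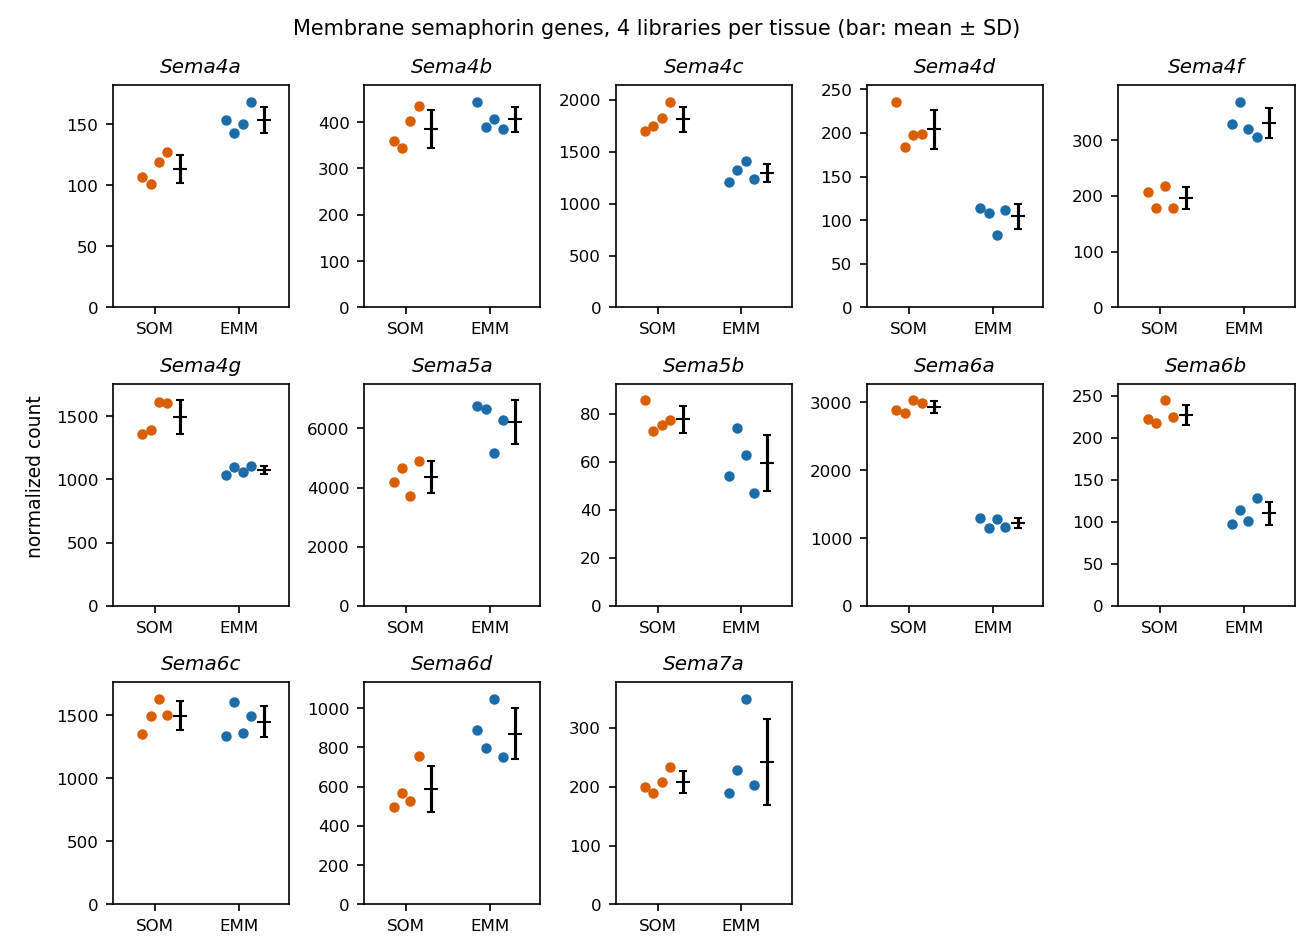
Normalized counts (linear axes from 0) of the 13 membrane semaphorin genes of classes 4 to 7, with 1 point per library, SOM on the left and EMM on the right, and mean ± SD bars. SOM points are higher without overlap for Sema4c, Sema4d, Sema4g, Sema6a and Sema6b, and EMM points for Sema4a, Sema4f and Sema5a.

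Both neuropilins, the ligand-binding co-receptors of class 3 semaphorins and of VEGF, were higher in EMM. Nrp1 (chr8:128358604-128503363, GRCm38) had 1647, 1436, 1399 and 1838 normalized counts in SOM replicates 1 to 4, against 3477, 3049, 3149 and 2809.8 in EMM replicates 1 to 4. Every EMM library was more than 1.5 times the highest SOM library, and the log2 difference was -0.99 (SE 0.09, limma adjusted p = 9.30e-07). Nrp2 (chr1:62703285-62818695) had 9434, 9533, 10458 and 10679.7 normalized counts in SOM replicates 1 to 4, against 17914, 16106, 15819.9 and 17321 in EMM replicates 1 to 4. These values did not overlap either, with a log2 difference of -0.74 (SE 0.06, limma adjusted p = 5.42e-09). Per kb of exon, Nrp2 was 5.30 ± 0.676 times Nrp1 in SOM and 4.47 ± 0.427 times in EMM (SD, n = 4 each), and these ratios overlapped between the tissues. With the longest annotated transcript as the length the ratio was 3.48 ± 0.444 in SOM and 2.93 ± 0.280 in EMM.

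A-type plexins, the signalling partners of the neuropilins, were higher in EMM in 3 of 4 genes (75%, beside 36.1% of all genes tested). Plxna4 (chr6:32144268-32588192, GRCm38), the receptor of Sema3a and of the class 6 ligands Sema6a and Sema6b, had 449.5, 516, 389 and 549.6 normalized counts in SOM replicates 1 to 4, against 2043, 2012, 2277 and 2157 in EMM replicates 1 to 4. The lowest EMM library was more than 3 times the highest SOM library. The log2 difference was -2.16 (SE 0.09, limma adjusted p = 2.62e-10), the largest among the receptors, and it ran opposite to that of Sema6a and Sema6b. Plxna1, an abundant receptor of Sema3a and Sema6d, averaged 5106 ± 299 in SOM and 6850.4 ± 337 in EMM (SD, n = 4 each), with a log2 difference of -0.42 (SE 0.05, limma adjusted p = 2.07e-06). Plxna2, a receptor of Sema3a and Sema6a, averaged 1004 ± 75.2 in SOM and 1443 ± 241 in EMM, with EMM replicate 3 at 1149.9 just above SOM replicate 4 at 1105, and a log2 difference of -0.51 (SE 0.11, limma adjusted p = 0.00164). Plxna3, an X-linked receptor of Sema3f, averaged 2245 ± 79.6 in SOM and 2115 ± 73.4 in EMM, and its log2 difference of 0.09 (SE 0.05, limma adjusted p = 0.118) did not pass, although upper quartile scaling gave an adjusted p of 0.0385.

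B-type plexins, the receptors of class 4 semaphorins, split by gene. Plxnb1, the receptor of Sema4d, was higher in SOM and had 2447, 2538, 2645 and 2565 normalized counts in SOM replicates 1 to 4, against 1573, 1469, 1839 and 1684 in EMM replicates 1 to 4. Its log2 difference was 0.64 (SE 0.06, limma adjusted p = 1.36e-07), in the same direction as that of Sema4d. Plxnb2, the receptor of Sema4c and Sema4g, was higher in EMM and had 11486, 11582, 12164 and 12733 normalized counts in SOM replicates 1 to 4, against 15989, 15766, 16875 and 16843 in EMM replicates 1 to 4. There the log2 difference was -0.45 (SE 0.05, limma adjusted p = 3.49e-07), opposite to that of Sema4c and Sema4g. The groups did not overlap for either gene. Per kb of exon, Plxnb2 was 5.85 ± 0.225 times Plxnb1 in SOM and 12.4 ± 0.797 times in EMM, without overlap. Plxnb3 was the rarest receptor, with 76 reads over all SOM libraries and 40 over all EMM libraries, and at this depth no difference was detectable, the log2 difference being 0.30 (SE 0.33, limma adjusted p = 0.421).

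Plxnc1, the receptor of Sema7a, had 254, 268, 255 and 297 normalized counts in SOM replicates 1 to 4, against 739, 727, 709.8 and 683 in EMM replicates 1 to 4. The EMM libraries were all far above the SOM libraries, and the log2 difference was -1.41 (SE 0.07, limma adjusted p = 6.45e-11). Plxnd1, the receptor of Sema3e that is best known from blood vessels, had 5479, 4999, 6025 and 6042 normalized counts in SOM replicates 1 to 4, against 4994, 4526, 5944 and 4568 in EMM replicates 1 to 4. The groups overlapped, EMM replicate 3 standing above the other EMM libraries, and the log2 difference was 0.18 (SE 0.09, limma adjusted p = 0.105). Without EMM replicate 3 the limma adjusted p of Plxnd1 was 0.00242 with a log2 difference of 0.26, without SOM replicate 2 it was 0.0345, and with SOM replicate 4 and EMM replicates 2 and 3 left out it was 0.0361. Of the 12 endothelial markers, Pecam1, Sox17 and Sox18 were higher in SOM, and Cdh5, Kdr, Tek, Emcn, Tie1, Erg and Egfl7 were higher in EMM, from a log2 difference of -0.23 for Cdh5 to -1.49 for Emcn (limma adjusted p at most 0.0205 for these 10 genes). Their sum was higher in every EMM library than in any SOM library. EMM replicate 3 had the highest endothelial sum, as given beside Sema3g, and its part in Plxnd1 was not tested.

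**Figure D4:**
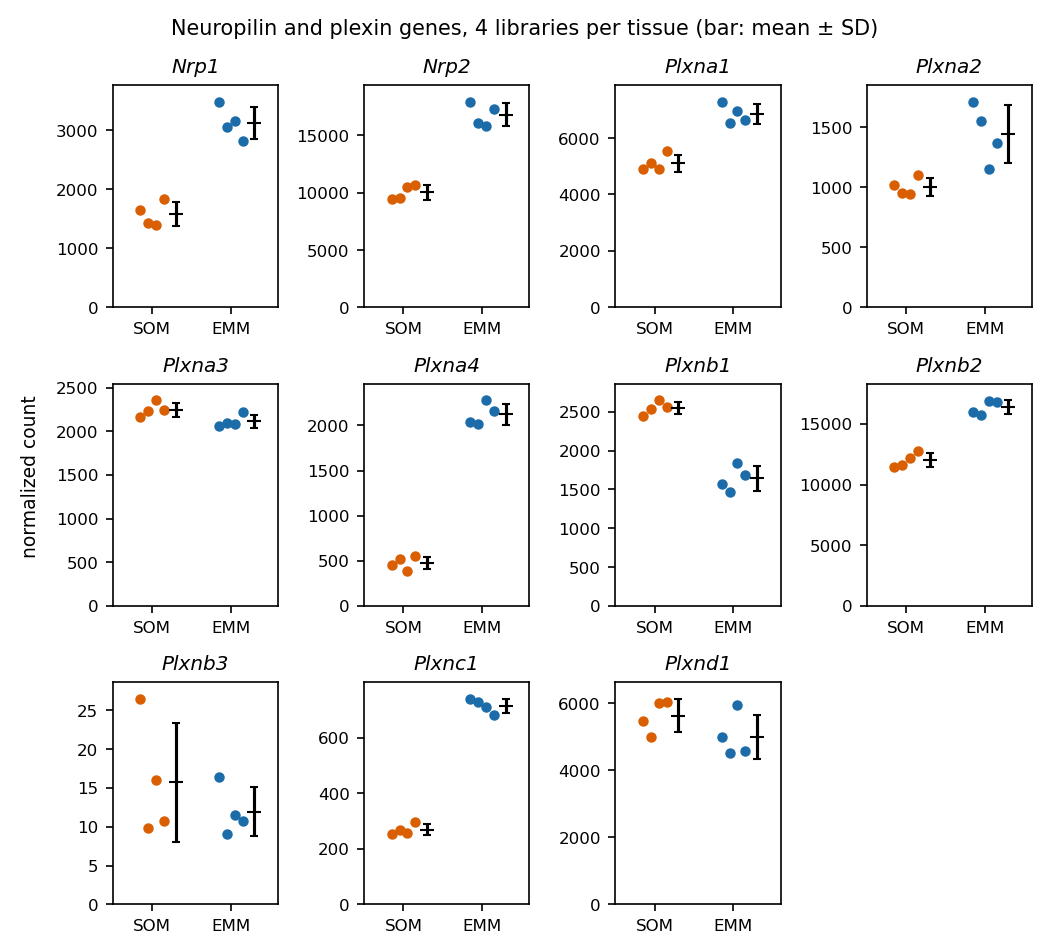
Normalized counts (linear axes from 0) of both neuropilin genes and the 9 plexin genes, with 1 point per library, SOM on the left and EMM on the right, and mean ± SD bars. EMM points lie above SOM points for Nrp1, Nrp2, Plxna1, Plxna2, Plxna4, Plxnb2 and Plxnc1, and SOM points lie above EMM points for Plxnb1.

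Levels per kb of exon gave the order of the ligands within each tissue, as a description. In SOM the order began with Sema3f at 553 ± 36.2 normalized counts per kb, Sema4c at 395 ± 26.8 and Sema6a at 334 ± 10.1 (SD, n = 4 each). These neighbours did not overlap, and Sema3c held the 8th place at 74.7 ± 10.4, where its libraries overlapped those of Sema4b. In EMM the order began with Sema3c at 1374 ± 164 and Sema3f at 562 ± 29.9, without overlap, and then Sema5a at 332 ± 39.1, which overlapped Sema4c at 282 ± 19.4. Sema6a held the 7th place there at 139 ± 8.09. Sema5b and Sema3e were the lowest ligands in both tissues. With the longest annotated transcript as the length, Sema4c and Sema6a overlapped in SOM, and Sema3a came before Sema4c in EMM. Summed by class, the class 4 level per kb was 719.6 ± 48.5 in SOM and 583 ± 16.7 in EMM. The class 6 level was 699 ± 33.9 in SOM and 493 ± 11.1 in EMM. Both sums were higher in every SOM library, the reverse of the class 3 sum.

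Among the receptors, Plxnb2 led in both tissues, at 1553 ± 74.9 in SOM and 2120.2 ± 74.3 in EMM normalized counts per kb. Nrp2 followed, at 847 ± 53.6 in SOM, where it overlapped Plxnd1, and at 1418 ± 83.8 in EMM, where it did not overlap the next gene. Plxnd1 and Plxna1 held the next places in both tissues, Plxnd1 before Plxna1 in SOM and Plxna1 before Plxnd1 in EMM, with overlap between them in EMM only. Plxna4 stood 9th of the 11 receptors in SOM and 8th in EMM, and Plxnb3 last in both. Nrp1 is sensitive to the length used, since its longest annotated transcript has 3645 bases and the union of its exons 9785. With the longest transcript it came 5th in SOM, at 433, and 3rd in EMM, at 856, and Plxnb2 and Nrp2 overlapped in EMM.

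**Figure D5:**
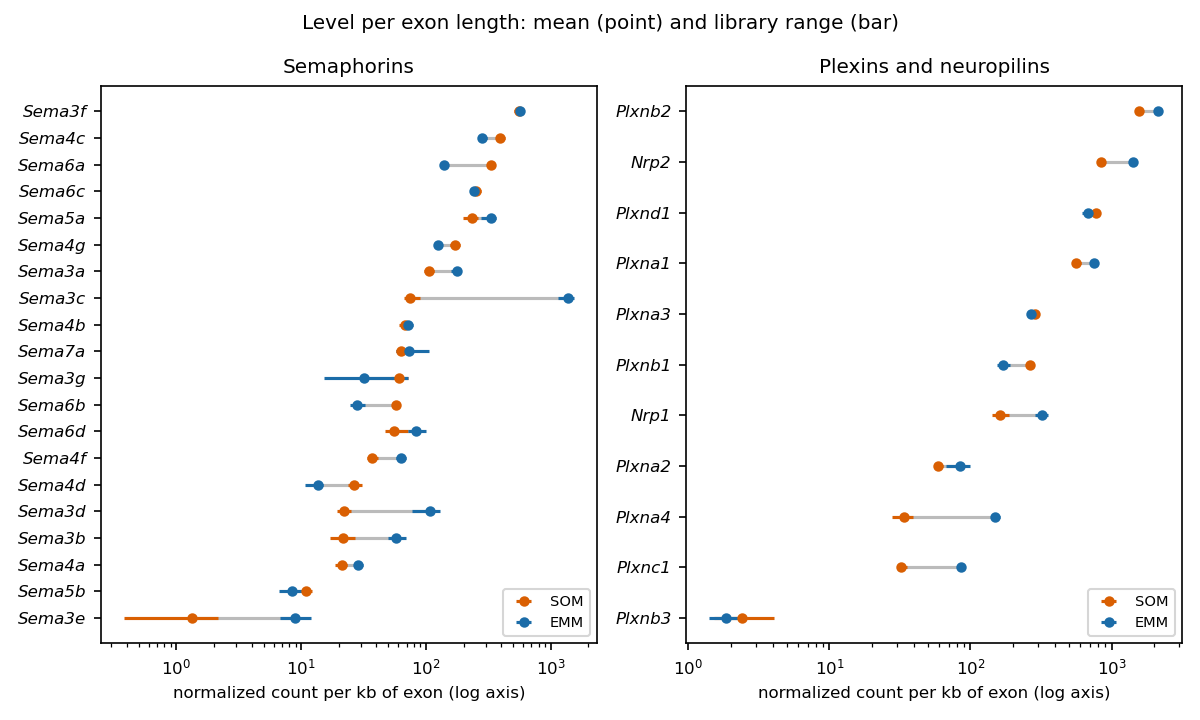
Mean normalized count per kb of exon on a log axis for the 20 semaphorins and the 11 receptors, with SOM and EMM points joined and bars from the lowest to the highest library. The longest joining line among the semaphorins is that of Sema3c, at 74.7 in SOM and 1374 in EMM.

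Other genes of the pathway were read from 4 lists, beside a median log2 difference of 0.0099 over all genes tested. Of 16 receptor partners tested, 3 passed toward SOM and 10 toward EMM (18.8% and 62.5%, beside 36.0% and 36.1% of all genes tested), and the median log2 difference was -0.44. The genes Itgb1 and Itga1, whose products form an integrin that binds Sema7a, had log2 differences of -1.29 and -2.06, and Itgb1 averaged 10199 ± 499 in SOM and 24983 ± 1154 in EMM. Tyrobp, an adaptor in the Plxna1 complex that is also a macrophage marker, had a log2 difference of -1.85. Toward SOM were L1cam, a partner of Nrp1 in Sema3a signalling, at a log2 difference of 0.65, its relative Chl1 at 1.92 and the receptor kinase gene Tyro3 at 0.19. Of these, Chl1 was scarce, at 13.6 ± 3.11 in SOM and 3.04 ± 1.67 in EMM. The limma adjusted p was at most 0.00431 for these 6 genes. The 10 partners toward EMM also include Kdr, at a log2 difference of -0.76. Kdr is an endothelial marker too and is counted again with the VEGF genes. The part of macrophages and vessels in the count of partners was not tested.

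Of 35 effector genes that act downstream of plexins, 9 passed toward SOM and 19 toward EMM (25.7% and 54.3%, beside 36.0% and 36.1% of all genes tested), and the median log2 difference was -0.26. Mical2, which encodes an enzyme that oxidises actin, had a log2 difference of -2.28 and averaged 70.9 ± 6.21 in SOM and 349.6 ± 40.5 in EMM. The scaffold gene Iqgap1 had a log2 difference of -0.99 and Rap1b, a GTPase of the kind that plexins switch off, one of -0.82. Dpysl4, of the collapsin response mediator family named for semaphorin signalling, had a log2 difference of 2.57 toward SOM and averaged 837 ± 47.6 in SOM and 141 ± 18.6 in EMM. Of its relatives, Dpysl2 also passed toward SOM, at 0.47, while Dpysl3, Dpysl5 and Crmp1 passed toward EMM, at log2 differences of -1.70, -0.83 and -0.51. The kinase genes Pak1 and Cdk5 had log2 differences of 0.67 and 0.46 toward SOM. The limma adjusted p was at most 2.71e-05 here.

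VEGF ligands and receptors share the neuropilins with the class 3 semaphorins. Of the 8 genes, 4 passed toward SOM and 3 toward EMM (beside 36.0% and 36.1% of all genes tested), and their median log2 difference was 0.15. The ligand genes Vegfb, Figf (now Vegfd) and Vegfa had log2 differences of 0.80, 0.92 and 0.32 toward SOM, while the ligand gene Pgf and the receptor genes Kdr and Flt1 had -0.74, -0.76 and -0.53 (limma adjusted p at most 0.00785). The third receptor gene, Flt4, went toward SOM, with a log2 difference of 0.69 (limma adjusted p = 0.000492). Of 8 proteases known to cleave semaphorins or to shed them from the membrane, 1 passed toward SOM and 5 toward EMM (beside 36.0% and 36.1% of all genes tested), and their median log2 difference was -0.54. Pcsk6 had a log2 difference of 0.88 toward SOM, and Pcsk5, of the same family of furin-like convertases, was higher in EMM, at a log2 difference of -1.21. The membrane proteases Adam10 and Mmp14 had log2 differences of -0.96 and -0.63 (limma adjusted p at most 3.16e-07 for these 4 genes).

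Replicates of a tissue varied little for most of the family. The median coefficient of variation over the 31 genes was 8.99% in SOM and 8.86% in EMM. It was above 25% for Sema3e and Plxnb3 in SOM, and for Sema3e, Sema3g, Sema7a and Plxnb3 in EMM. Exons of 7 of the 31 genes overlap exons of another GENCODE gene. In 4 of them (Sema4c, Plxna1, Plxna4 and Plxnb1) the other gene is antisense, and without strand information the reads of both cannot be told apart. The overlap was longest in Plxna1, with 970 of 9054 exonic bases.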

How the data were processed

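Total RNA of 8 pools, 4 SOM and 4 EMM, was sequenced after treatment of the dissected heads with dispase (3 U/ml, 37 C, 10 min), per the labels' protocols. In the submitters' processing notes the tools are bcl2fastq, STAR and DESeq2, with no version, and the build is mm10. The read counter, its annotation and its strand setting were not given in the sources used here. A single table of 23420 genes was deposited. Its signal per library is the authors' normalized count, in which, judged from the values, reads were divided by 1 size factor per library. The authors' log2 fold change, Wald score and p-value of each gene stand beside it, positive for EMM.

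All values were whole multiples of 1 read within 1 ppm, so reads were recovered by division. Genes with at least 10 normalized counts in at least 4 libraries were kept (14249). For this normalized unit the main test was limma 3.58.1 in R 4.3.3, with trend and robust moderation, on log2(normalized count + 1). The added 1 shrinks log2 changes of low genes, yet differences here were not always smaller than the authors'. Sema3e had -2.80 and Sema3g 1.23 here, while the authors' log2 fold changes, positive for EMM, were 2.52 and -0.73. Calls used a Benjamini-Hochberg adjusted p of 0.05 over all genes tested. A count test on the recovered reads with edgeR 4.0.16 and another with DESeq2 1.42.0 were alternatives, beside limma-voom, other scalings, filters and pseudocounts, a replicate block and left-out libraries. Group means, ratios and percentages come from Python 3.11.15. Nothing says that pools came from separate litters, so p-values measure the spread between these libraries. Levels per kb used the union of GENCODE M21 exons on GRCm38, the assembly mm10 names. Members and lists were chosen with earlier results of these data known. Every member was named, and of each pathway list up to 3 genes per direction with the lowest adjusted p; Flt4, the relatives of Dpysl4 and the marker genes were named after their values were seen. Listed genes were matched by symbol or older symbol. The fit was tested on simulated data with known changes. It recovered 72.7% of 1.5-fold, 90.9% of 2-fold and 100% of 4-fold changes (66 genes each), with 14 false calls among 13950 unchanged genes. Far fewer genes changed there than the 72.1% that passed here, so its rates need not hold for these data. Libraries of a tissue differed by a chi-square per degree of freedom of 3.72 to 19.0, so none was counted as a copy of another.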

Additional observations from a re-analysis of the deposited data

Results flagged for a closer look

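Sema3g was singled out by its highest EMM library. EMM replicate 3 stood at 325 normalized counts, while the SOM libraries ran from 240.0 to 327 and the other EMM libraries from 68.7 to 97.6. The gap to the next EMM library was 0.887 of the whole EMM range, above Dixon's 95% critical value for 4 samples. Chance alone marks about 1 in 20 such groups, and 62 groups, 31 genes in each of 2 tissues, were looked at.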

How the results depend on the processing

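Of 557 values, the differences of the 31 genes under the 18 alternatives (Plxnb3 was not tested with a minimum of 50), 538 kept their direction and their side of the threshold, 8 came to pass it, 6 no longer passed and 5 changed sign. The 5 were small and never called: Sema3f had 0.0047 with upper quartile scaling, 0.016 without SOM replicate 1 and 0.0027 without EMM replicate 2, and Sema7a had 0.0061 without EMM replicate 3 and 0.021 when EMM replicates 2 and 3 and SOM replicate 4 were left out together; the cause was not tested. With 1 library left out, the difference ran from -0.061 to 0.016 for Sema3f and from -0.29 to 0.0061 for Sema7a. The 8 were in Sema3g, Plxna3 and Plxnd1, and the 6 in Sema5b. The median level per kb in SOM over the 31 genes was 68.3 normalized counts with the union of exons and 97.2 with the longest annotated transcript, which is never longer. Without each library in turn, the count higher in SOM ran from 6 to 9 and the count higher in EMM stayed at 16. The labels do not say whether same-numbered libraries came from the same embryos. Their deviations from the group means had correlations of -0.02 to 0.13, beside -0.15 to 0.10 for libraries of different numbers. Correlations this small cannot settle whether the numbers pair the libraries. With the replicate block 8 genes were higher in SOM and 16 in EMM, Plxnd1 being the gene gained (adjusted p = 0.0172). Scaling moved the median difference of all genes by no more than 0.04. Depth limits Sema3e and Plxnb3, the 2 genes with under 100 reads over the SOM libraries.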
